A study of Mus musculus with 12 samples.

Results

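The goblet cell mucus genes of the small intestine were followed in epithelial cells of mice after experimental stroke. The list held 10 genes, chosen by symbol: the gel-forming mucin Muc2, the secreted mucus proteins Fcgbp, Zg16, Tff3 and Spink4, the mucin-folding protein Agr2, the transcription factor Spdef, and the membrane mucins Muc13, Muc3 and Muc1. Of these, 9 had a row among the 15855 genes of the count table, and all 9 passed the filter on low counts. Muc1 had no row and is not analysed here.

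RNA was sequenced from 12 samples of sorted EpCAM-positive small intestinal epithelial cells of C57BL6/J mice, collected 24 h after surgery. In the 5 mice of the pMCAO group the middle cerebral artery was permanently blocked by a filament passed through the vessel. The 7 sham mice were operated on in the same way, but their artery was not blocked. All were specific-pathogen-free males aged 8 to 12 weeks. Cells were sorted on EpCAM, an adhesion protein of epithelia, with those that took up a dead-cell dye left out. The sorted population therefore pooled all epithelial lineages of the whole small intestine rather than goblet cells alone.

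Goblet cells are secretory cells scattered among the absorptive enterocytes. They fold Muc2 in the endoplasmic reticulum, decorate it with O-linked sugars, store it in granules and release it to form the mucus gel that keeps bacteria away from the epithelium. Spdef drives the late steps of goblet cell maturation, whereas membrane mucins such as Muc13 and Muc3 sit in the brush border of enterocytes.

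The samples were placed in 4 library sets, which follow the order of the library numbers in the titles but whose boundaries are not in the labels. Set 1 held sham replicates 1, 2 and 3 and pMCAO replicate 1, set 2 held sham replicates 4 and 5 and pMCAO replicates 2 and 3, set 3 held sham replicate 6 and pMCAO replicates 4 and 5, and set 4 held sham replicate 7 alone. The libraries of set 1 stood apart from the rest. Genes with at least 1 read numbered 13386 to 14712 in set 1 and 15343 to 15766 in the other 8 samples, and mitochondrial ribosomal RNA took 34.8% to 54.5% of the counts in set 1 and 14.6% to 35.2% elsewhere. Total counts ranged from 7418730 to 31925579, so that 3 counts corresponded to between 0.094 and 0.404 CPM, the usual scale of reads relative to the total of the library. These limits are before the scaling between libraries that the levels below carry. Its factors were 0.559 to 0.792 in set 1, so 3 counts stand for a higher scaled level there. The 7 epithelial markers tested, Epcam among them, had reads in every sample, and only 2 of 10 stromal, muscle and endothelial markers had a row.

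Of the secretory genes of the list, 4 had a window in the RefSeq promoter set used: Muc2, Fcgbp, Agr2 and Spdef. Their promoters are printed because all 4 genes were called lower in library set 1. Each is the 250 bases before the RefSeq start on GRCm38.p6, read 5′ to 3′ on the strand of the gene. Capitals mark matches on either strand to 4 motifs: the forkhead motif TGTTTNC, the E-box CAGCTG, the CDX motif TTTATNG and the TATA box TATAAA.
Muc2, chr7:141690090-141690339, plus strand: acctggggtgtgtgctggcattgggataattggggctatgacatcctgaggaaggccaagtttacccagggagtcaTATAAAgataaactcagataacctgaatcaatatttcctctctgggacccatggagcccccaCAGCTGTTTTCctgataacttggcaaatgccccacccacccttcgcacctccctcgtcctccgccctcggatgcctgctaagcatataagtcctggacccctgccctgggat
Fcgbp, chr7:28070986-28071235, plus strand: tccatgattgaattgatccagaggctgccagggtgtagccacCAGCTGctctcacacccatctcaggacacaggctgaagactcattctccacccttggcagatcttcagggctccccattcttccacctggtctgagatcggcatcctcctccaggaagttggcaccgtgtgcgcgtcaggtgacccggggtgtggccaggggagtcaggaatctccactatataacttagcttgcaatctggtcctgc
Agr2, chr12:35992675-35992924, plus strand: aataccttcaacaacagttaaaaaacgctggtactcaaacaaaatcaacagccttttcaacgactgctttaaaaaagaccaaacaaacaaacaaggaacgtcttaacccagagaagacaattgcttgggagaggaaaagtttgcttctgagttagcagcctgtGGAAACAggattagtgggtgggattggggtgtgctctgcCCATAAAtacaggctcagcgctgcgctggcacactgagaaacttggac
Spdef, chr17:27728952-27729201, minus strand: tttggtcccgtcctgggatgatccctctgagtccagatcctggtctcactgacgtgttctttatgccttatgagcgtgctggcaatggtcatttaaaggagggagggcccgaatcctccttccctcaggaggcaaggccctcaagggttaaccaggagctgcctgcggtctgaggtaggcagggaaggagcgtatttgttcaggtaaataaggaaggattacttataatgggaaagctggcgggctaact
Muc2 held the most matches of the 4, with an E-box at position -112 that shares bases with a forkhead match at -108, and a TATA box at -174. Fcgbp held an E-box at -208, Agr2 held a forkhead match at -87 and a CDX match at -48, and the Spdef window held no match. Among 32851 mouse promoter windows of the same length, 17.8% held the forkhead motif, 13.0% the E-box, 9.8% the CDX motif and 12.4% the TATA box, so none of these motifs was rare. The RefSeq window of Muc3 lies upstream of the gene model that was counted and is not shown. Of the 10 genes, 7 had a window in the promoter set used, and Zg16, Tff3 and Spink4 were those without one there.

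Muc2 (ENSMUSG00000025515, chr7:141690340-141754693, plus strand, GRCm38) encodes the polymer that makes up the mucus gel. It was among the most counted genes of the whole table, with a rank between 4 and 48 of all genes in a sample, and took 0.189% to 3.23% of the counts that were not mitochondrial ribosomal RNA. In sham mice its level, in CPM scaled with the trimmed mean of M-values (TMM), was 1496 at the lowest, 6899.8 at the median and 18192 at the highest. In pMCAO mice replicates 1 to 5, an order kept in the text for each gene, measured 2180.2, 16716, 6882, 8639.6 and 10318 CPM. The groups overlapped almost fully, and in both the lowest values came from library set 1. The mean was 7088 CPM ± 5831 (sham, SD, n = 7) against 8947 CPM ± 5301 (pMCAO, SD, n = 5). The annotation marks Muc2 as a fragmented locus, which limits any level per base of its 7127 annotated exonic bases. The 7 secretory genes together (Muc2, Fcgbp, Zg16, Tff3, Spink4, Agr2 and Spdef) took 0.485% to 0.919% of the counts without mitochondrial ribosomal RNA in set 1 and 2.58% to 9.01% in the later sets.

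**Figure D1:**
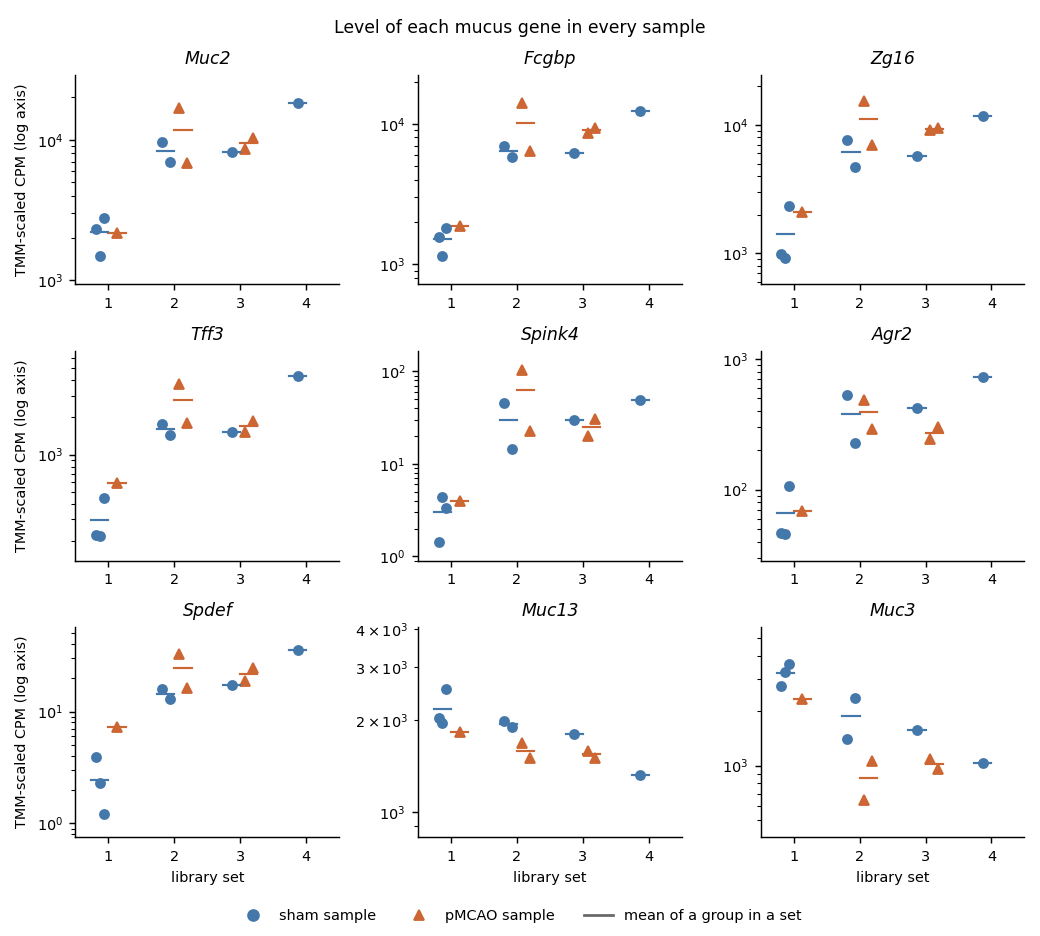
TMM-scaled CPM of the 9 mucus genes in each of the 12 samples, on log axes whose range differs between panels, with samples placed by library set. Circles are sham and triangles pMCAO samples, and short lines are the mean of a group within a set. For Muc2, Fcgbp, Zg16, Tff3, Spink4, Agr2 and Spdef all 4 samples of set 1 lie under the other 8, whereas the 3 highest Muc3 samples are the sham samples of set 1.

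The comparison of pMCAO with sham mice asked whether the mucus programme of the epithelium differed 24 h after stroke. None of the 9 genes was called by limma-voom with library set as a term, beside 0.325% of the 14462 genes tested, and edgeR and DESeq2 also called 0. A call required both a Benjamini-Hochberg adjusted p no higher than 0.05 and a change of 1 log2 unit or more in either direction. The listed secreted mucus proteins had positive fold changes and the listed membrane mucins, Muc13 and Muc3, negative ones, all short of the call. By the unadjusted p alone, 6 of the 9 genes were under 0.05, beside 12.7% of all genes, and the median log2 fold change of the 9 was 0.49 against 0.013 over all genes. With group alone in the model 1 of the 9 was under 0.05, with a median of 0.77. With library set 1 left out 2 were, with a median of 0.48. The count and the median also leaned on single samples. Without pMCAO replicate 2 the median of the 9 was -0.019, with 4 positive values and 4 genes under an unadjusted p of 0.05, and without sham replicate 5 it was 0.13. Without pMCAO replicate 1 the median was 0.48 and 3 genes were under 0.05. Sham replicate 7 is alone in its set and adds almost nothing to the fold changes of fits with a library set term. It does count with group alone, where leaving it out gave a median of 1.05 and 2 genes under 0.05. That setting was chosen after seeing the data. In bulk RNA, fewer cells of a type and less RNA per cell cannot be told apart.

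For Muc2 the log2 fold change was 0.22 (adjusted p = 0.717, SE 0.22, 95% interval -0.24 to 0.68). Its differences within library sets 1, 2 and 3 were 0.03, 0.39 and 0.20 on the log2 scale. The interval thus held both no change and a rise within 1 log2 unit, and without pMCAO replicate 2 the value was -0.019.

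Zg16 (ENSMUSG00000049350, chr7:127050156-127087328, minus strand) encodes a lectin-like protein that binds Gram-positive bacteria in the mucus. Its levels in pMCAO mice were 2102, 15471, 6962, 9124 and 9509 CPM, against a lowest of 914, a median of 4702 and a highest of 11696 CPM in sham mice. Every set that held both groups had the pMCAO mean above the sham mean, by 0.71, 0.80 and 0.69 log2 units. The fitted log2 fold change was 0.74 (SE 0.25, 95% interval 0.22 to 1.27), which did not pass the adjustment (adjusted p = 0.211).

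Fcgbp (ENSMUSG00000047730, chr7:28071236-28120862, plus strand) encodes a large protein of von Willebrand-type repeats that accompanies Muc2 in the gel. In pMCAO mice it measured 1882, 14049, 6374, 8604 and 9409 CPM, and in sham mice 1148 at the lowest, 5787 at the median and 12258 at the highest. Differences within the 3 sets were 0.35, 0.58 and 0.54, and the fitted log2 fold change was 0.49 (adjusted p = 0.27, SE 0.18), or 0.29 without pMCAO replicate 2. As for Muc2, the samples of set 1 held the low end of both groups.

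Tff3 (ENSMUSG00000024029, chr17:31125306-31129646, minus strand), the intestinal trefoil peptide that aids epithelial repair, measured 591, 3728, 1805, 1537 and 1882 CPM in pMCAO mice. The sham values ran from 222 through a median of 1432 to 4309 CPM. Its log2 fold change was 0.66 (adjusted p = 0.211, SE 0.22), with within-set differences of 1.07, 0.70 and 0.15. It was 0.44 without pMCAO replicate 2 and 0.48 without pMCAO replicate 1. The set that held the largest difference was the one with a single pMCAO sample.

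Spink4 (ENSMUSG00000028415, chr4:40920052-40931395, plus strand), a Kazal-type protease inhibitor made by goblet cells, was far less abundant, at 1.43 CPM at the lowest, 14.3 at the median and 48.7 at the highest in sham mice. In pMCAO mice it measured 4.02, 104, 22.7, 19.8 and 30.8 CPM, with the highest level of all 12 samples in replicate 2. In set 1 it rested on only 14 to 47 reads a sample. Its log2 fold change of 0.58 (adjusted p = 0.646, SE 0.46) differed in sign between sets, at 0.52, 0.92 and -0.26. Without sham replicate 5 or pMCAO replicate 2 the fitted value was -0.019 and -0.047.

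Agr2 (ENSMUSG00000020581, chr12:35992907-36004087, plus strand) is a disulphide isomerase of the endoplasmic reticulum needed to make Muc2. It measured 68.02, 489.5, 289.7, 246 and 299 CPM in pMCAO mice, inside the sham range of 45.6 to 722 CPM, whose median was 227. Its fitted log2 fold change was -0.086 (adjusted p = 0.928, SE 0.25, 95% interval -0.62 to 0.45). Among the secretory genes of the list it was the only one with a negative fitted value, which turned positive, up to 0.18, without sham replicate 4, sham replicate 6 or pMCAO replicate 3.

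Spdef (ENSMUSG00000024215, chr17:27714352-27728955, minus strand), an ETS-family transcription factor, was at 7.35, 32.7, 16.3, 18.7 and 24.8 CPM in pMCAO mice and at 1.21 CPM at the lowest, 12.8 at the median and 35.6 at the highest in sham mice. Its log2 fold change was 0.61 (adjusted p = 0.373, SE 0.28), and the within-set differences were 1.68, 0.69 and 0.31. Without pMCAO replicate 2 it was 0.38. The set 1 value compares 86 reads in the pMCAO sample with 5 to 49 in the sham samples.

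The listed membrane mucins, Muc3 and Muc13, lay on the other side of zero. Outside the list, Muc3a and the membrane mucin Muc4 had positive log2 fold changes, at 0.22 and 0.31. Muc3 (ENSMUSG00000037390, chr5:137134922-137149322, minus strand) measured 2311, 648, 1065, 1093 and 959 CPM in pMCAO mice, and 1031 at the lowest, 2357 at the median and 3600.0 at the highest in sham mice. Within each set every pMCAO sample was under every sham sample, and the pooled groups overlapped through set 1 and sham replicate 7. Its log2 fold change of -0.79 (SE 0.18, 95% interval -1.17 to -0.40) had the smallest p of the 9 genes, and the adjusted p of 0.0623 missed the threshold. By DESeq2 the adjusted p was 0.0146 with a log2 fold change of -0.80, under the fold threshold, and by edgeR's quasi-likelihood test the adjusted p was 0.179, and over all alternatives it ranged from 0.0146 to 0.726.

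Muc13 (ENSMUSG00000022824, chr16:33794037-33819934, plus strand) varied least of all, from 1321 CPM through a median of 1959 to 2529.7 in sham mice, and measured 1833, 1681, 1499.5, 1587 and 1500.1 CPM in pMCAO mice. Its fitted log2 fold change was -0.26 (adjusted p = 0.358, SE 0.12), with within-set differences of -0.24, -0.29 and -0.23. As for Muc3, every pMCAO sample was under every sham sample of its own set, so that this held for 2 of the 9 genes beside 2.41% of all genes tested. Of its exonic bases, 184 overlap Gm15657 on the opposite strand, and whether reads were counted by strand was not stated. Of the bases of its longest transcript, 7.5% matched other transcripts, so a part of its reads could have been split between genes.

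**Figure D2:**
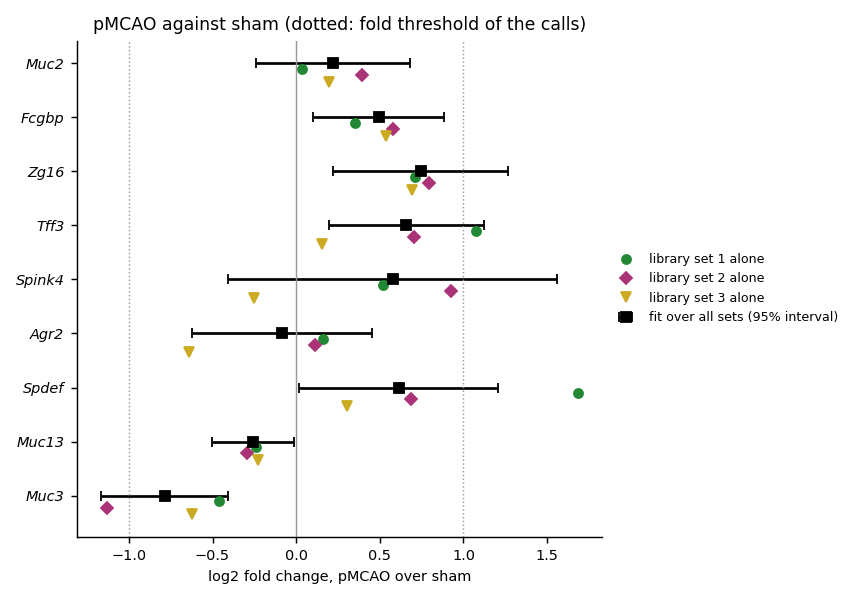
Log2 fold changes of pMCAO over sham for the 9 mucus genes: squares with bars give the limma-voom fit with library set and its 95% interval, and coloured symbols give the difference of mean log2 CPM within library sets 1, 2 and 3. Muc2, Fcgbp, Zg16, Tff3 and Spdef are above 0 and Muc13 and Muc3 below 0 in every set, and none of the 9 was called.

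Of the 9 genes, 5 (Muc2, Fcgbp, Zg16, Tff3 and Spdef) had a higher mean in pMCAO than in sham mice in each of the 3 sets that hold both groups, beside 16.9% of all genes tested. A test of whether the group difference itself varied between sets called 0 of the 9 (limma-voom F test of the interaction over 11 samples), beside 0.035% of 14277 genes. The smallest unadjusted p of that test was 0.228, for Muc3, and 0 of the 9 were under 0.05, and edgeR also called 0. With group alone in the model, the log2 fold changes of Muc2, Fcgbp, Zg16 and Agr2 became 0.55, 0.88, 1.11 and 0.29 and that of Muc3 -0.91, and 0 of the 9 were called.

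Levels relative to Muc2 in the same sample separated the groups for Zg16 and Fcgbp. The ratio was chosen after the values had been seen, so it is given as a description with no test. For Zg16 the log2 ratio to Muc2 was -1.22 to -0.26 in the 7 sham samples and -0.12 to 0.079 in the 5 pMCAO samples, with no overlap. Its mean was -0.61 ± 0.31 (SD, n = 7) against -0.037 ± 0.085 (SD, n = 5), so that on the CPM scale, which takes no account of gene length, the sham ratios lay lower than each pMCAO ratio. For Fcgbp the ratio was -0.63 to -0.25 in sham and -0.25 to -0.0059 in pMCAO samples, separated only in the third decimal (-0.254 against -0.251). Within library sets 1, 2 and 3 the pMCAO mean ratio exceeded the sham mean by 0.68, 0.41 and 0.50 log2 units for Zg16 and by 0.32, 0.19 and 0.34 for Fcgbp. Every pMCAO sample lay above every sham sample for 0.0415% of 14461 genes, and Zg16 and Fcgbp were 2 of those 6, the others being Bbs7, Fam189a1, Gm9001 and RP23-130C18.1. That share is low in part by construction. Muc2 was lower in library set 1 (log2 fold change -2.40), and a ratio to it carries this difference into both groups for genes that lack it. The share therefore does not show how rare such a separation is. For Tff3 and Agr2 the groups overlapped, with pMCAO ratios of -2.49 to -1.88 and -5.13 to -4.57.

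**Figure D3:**
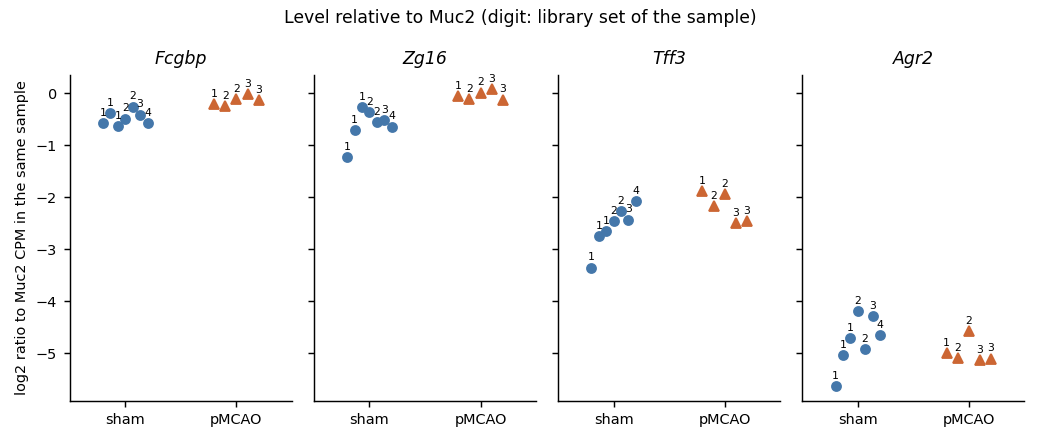
Log2 ratio of Fcgbp, Zg16, Tff3 and Agr2 CPM to Muc2 CPM in the same sample, for 7 sham (circles) and 5 pMCAO (triangles) samples, with the library set printed beside each point and points within a group spread sideways by replicate number. Zg16 and Fcgbp do not overlap between the groups, whereas Tff3 and Agr2 do.

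For the 7 secretory genes the difference between library set 1 and the later sets exceeded the group difference of the same fit by several times, and for Muc3 and Muc13 the 2 differences were closer in size. In the same fit, 7 of the 9 genes were called lower in set 1 than in the mean of sets 2, 3 and 4, beside 11.2% of all genes, and 1, Muc3, was called higher, beside 4.13%. The log2 fold changes of the 7 genes ran from -2.40 for Muc2 to -3.62 for Spink4, with a shift of -0.17 in the median of all genes. For all 7 the highest sample of set 1 was under the lowest of the other 8 samples, which held for 9.4% of all genes.

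Muc2 averaged 2194 CPM ± 534 (SD, n = 4) in set 1 and 10697 CPM ± 4356 (SD, n = 8) in the later sets, a log2 fold change of -2.40 (adjusted p = 1.14e-05, SE 0.22). Fcgbp averaged 1597 CPM ± 331 against 8703 CPM ± 3048, a log2 fold change of -2.47 (adjusted p = 1.92e-06, SE 0.19). For Zg16 the means were 1585 CPM ± 738 and 8852 CPM ± 3471, with a log2 fold change of -2.54 (adjusted p = 2.12e-05, SE 0.25). Muc2, Fcgbp and Zg16 were thus lower in set 1 by similar amounts.

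Tff3 was lower by a log2 fold change of -2.76 (adjusted p = 6.60e-06, SE 0.23) and Agr2 by -2.86 (adjusted p = 3.61e-05, SE 0.30). Spdef was at 3.68 CPM ± 2.68 (SD, n = 4) in set 1 and 21.8 CPM ± 8.36 (SD, n = 8) later, a log2 fold change of -2.53 (adjusted p = 0.00348, SE 0.54). Spink4, at 3.30 CPM ± 1.31 against 39.5 CPM ± 28.8, had a log2 fold change of -3.62 with a wide SE of 1.04 and an adjusted p of 0.0197. Leaving out sham replicate 1 or pMCAO replicate 1 ended the call for Spink4, with adjusted p of 0.078 and 0.106, the latter the highest over its 20 alternatives and 6.52e-13 the lowest.

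Muc3 went the other way, at 2983 CPM ± 569.7 (SD, n = 4) in set 1 and 1267 CPM ± 522 (SD, n = 8) later, a log2 fold change of 1.25 (adjusted p = 0.000361, SE 0.18). Muc13 had a log2 fold change of 0.38 (adjusted p = 0.0307, SE 0.12), under the fold threshold. The ratio of Muc3 to Muc2 therefore ran from 0.084 to 1.13 log2 units in set 1 and from -4.69 to -1.55 in the later sets.

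**Figure D4:**
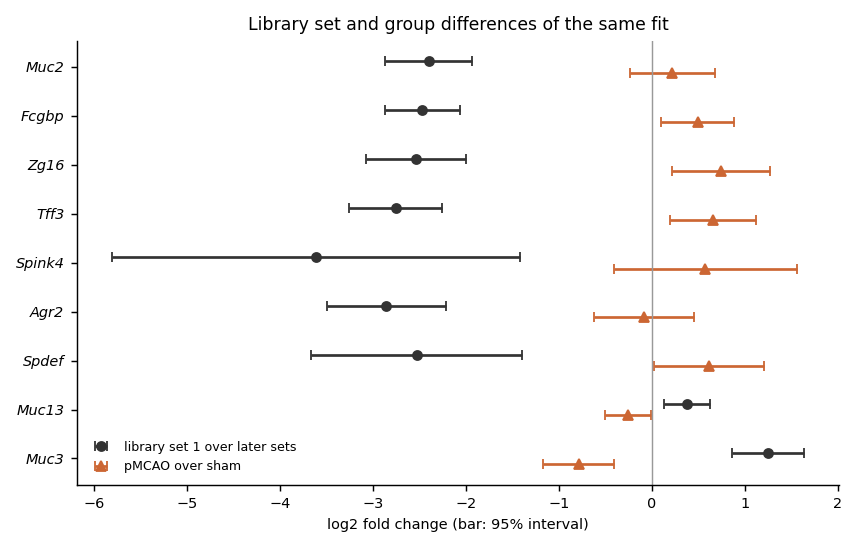
Log2 fold changes with 95% intervals from one fit for the 9 mucus genes: circles compare library set 1 with the mean of sets 2, 3 and 4, and triangles compare pMCAO with sham. The 7 secretory genes lie between -2.40 and -3.62 for the set and between -0.086 and 0.74 for the group, and Muc3 is at 1.25 and -0.79.

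Markers of other epithelial lineages and measures of library quality moved with the same split. The summed level of 10 enteroendocrine markers was 214 to 348 CPM in set 1 and 1345 to 2771 CPM later, and 10 of 10 were called lower. The 10 tuft cell markers summed to 23.6 to 61.3 CPM against 299 to 1332 CPM, with 7 of the 9 tested called lower and Pou2f3, Il25 and Gnat3 at 0 in at least 1 library of set 1. Stem cell markers were called lower in 4 of 7, Paneth cell markers in 2 of 7 and lymphocyte markers in 9 of 10, whereas 3 of 12 enterocyte markers were called higher and 1 lower. Over all genes tested, 11.2% were called lower and 4.13% higher in set 1. Myeloid markers gave 0 calls in 7 tested, with 1 at an unadjusted p under 0.05. The day of collection is not in the labels, and the part of these markers, of the genes detected and of mitochondrial ribosomal RNA in the mucus gene differences was not tested.

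Between pMCAO and sham mice the marker lists differed less. Of the 10 lymphocyte markers 8 had positive log2 fold changes, with a median of 0.79. None was called, though 6 had an unadjusted p under 0.05, beside 12.7% of all genes. Their summed level was 40.8 to 777 CPM in sham and 75.2 to 593 CPM in pMCAO mice. All 12 enterocyte markers were positive with a median of 0.29 and 4 had an unadjusted p under 0.05. Among them Sis, the brush border sucrase-isomaltase, had an adjusted p of 0.0337 by limma-voom with a log2 fold change of 0.74, under the fold threshold. In contrast, 8 of 9 tuft cell markers and 7 of 10 enteroendocrine markers were negative. By the same test 0 of these markers were called, and their part in the mucus gene values was not tested.

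Per kilobase of exon, Zg16 had the highest mean of the mucus genes in both groups, at 3863 CPM per kb ± 3115 (sham, SD, n = 7) against 6868 CPM per kb ± 3840.2 (pMCAO, SD, n = 5). This order of means did not hold in each sample, since Muc3 exceeded Zg16 in sham replicates 1 and 2 of library set 1, at 1413 against 787 and 1686 against 727 CPM per kb. Tff3 followed at 2878 and 3871 CPM per kb, and lay under Zg16 in all 7 sham and all 5 pMCAO samples. In sham mice Muc3, at 1176 CPM per kb, came next and exceeded Muc2, at 995, in only 4 of 7 samples. This order depended on the library set. Muc2 and Muc3 averaged 308 and 1650 CPM per kb in the sham samples of set 1, and 1509 and 820 in the later sham samples. Tff3 over Muc3 and Muc2 over Muc13 each held in 4 of 7 sham samples, all 4 of them from the later sets. Set 1 held sham replicates 1, 2 and 3 but only replicate 1 of the pMCAO group, so the orders of the 2 groups are not directly comparable. In pMCAO mice Muc2, at 1255 CPM per kb, stood above Fcgbp in 5 of 5 samples, and Muc3 took the fifth place at 625, above Muc13 in 3 of 5. At the low end the order was the same in every sample of both groups, with Agr2 above Spink4 and Spink4 above Spdef, at 233, 44.2 and 5.52 CPM per kb in sham mice. The Muc3 model that was counted has 1943 exonic bases and lies downstream of the RefSeq start, which limits any level per base of Muc3.

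Among the secretory genes, sample-to-sample differences within library sets ran together. After the mean of each set was subtracted, Pearson's r of log2 CPM over the 11 samples of sets 1, 2 and 3 was 0.73 to 0.93 for the 6 pairs among Muc2, Fcgbp, Zg16 and Tff3, and the median over the 21 pairs of all 7 secretory genes was 0.64. Spdef and Agr2 were the loosest of these pairs, at -0.063. Muc3 was negatively related to each of the 7, down to -0.79 with Fcgbp, and positively to Muc13, at 0.63. These values describe 11 libraries that differ in depth and scaling, and within a library all genes share the same depth and scaling factor. Both groups are pooled in them.

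**Figure D5:**
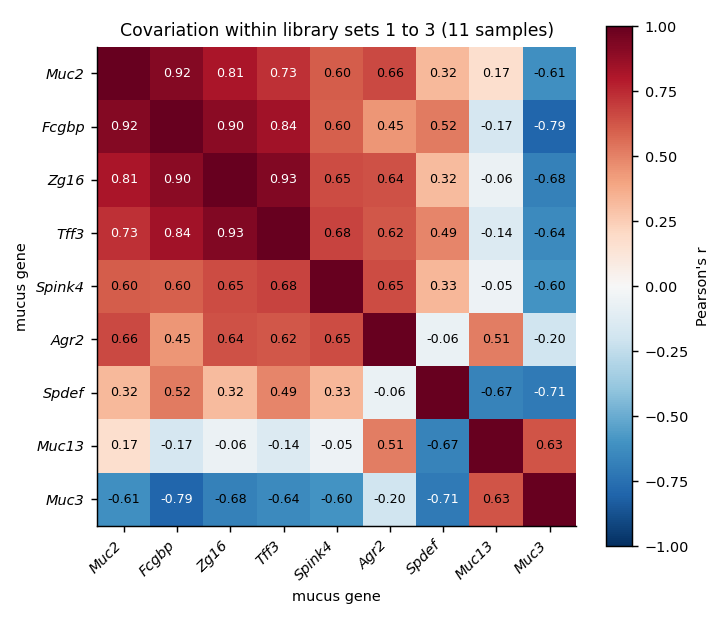
Pearson's r between the log2 CPM of each pair of the 9 mucus genes over the 11 samples of library sets 1 to 3, after the mean of each set was subtracted, where red is positive and blue negative. Muc2, Fcgbp, Zg16 and Tff3 form a block of 0.73 to 0.93, and Muc3 is negative with all 7 secretory genes.

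Over the whole table, the 5 genes whose pattern was most like that of Muc2 by the same measure were Inpp4b (r = 0.92), Fcgbp (0.92), 4930481A15Rik (0.91), Tnrc6c (0.90) and Zfp788 (0.90). Fcgbp was the only gene of the mucus list among them. Zfp788 and 4930481A15Rik were low, with mean log2 CPM of 1.90 and 0.23 against 12.22 for Fcgbp.

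Other goblet cell genes, not all of which encode secreted products, resembled the listed secretory ones. Of 15 tested, 0 were called between pMCAO and sham mice, beside 0.325% of all genes. Of the 15, 5 had an unadjusted p under 0.05, beside 12.7% of all genes. Positive log2 fold changes were found for 13, and the median was 0.52. Clca1, a metalloprotease that processes Muc2, was the most abundant, at 1357 CPM ± 925 (sham, SD, n = 7) against 2575 CPM ± 1594 (pMCAO, SD, n = 5), a log2 fold change of 0.52 (adjusted p = 0.385, SE 0.24). Rep15, a Rab15 effector, had 1.39 (adjusted p = 0.0997, SE 0.35), and Guca2a, the hormone guanylin, 0.66 (adjusted p = 0.176, SE 0.20). Rep15 was low, with means of 6.95 CPM in sham and 13.6 CPM in pMCAO mice, and only 0.41 to 2.15 CPM in library set 1. In library set 1, 10 of the 15 were called lower, beside 11.2% of all genes. Clca1 had a log2 fold change of -2.50 there (adjusted p = 2.4e-05) and Smim14 one of -1.28 (adjusted p = 0.00113). Tspan13, among the most abundant, had -0.86 (adjusted p = 0.00614), under the fold threshold.

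Genes of mucin folding, storage and release gave 0 calls between the groups in 18 tested, with a median log2 fold change of 0.089. Of the 18, 1 had an unadjusted p under 0.05, beside 12.7% of all genes. Xbp1, a transcription factor of the unfolded protein response, had 0.39 (adjusted p = 0.302), Unc13d, a priming factor of vesicle release, had -0.97 (adjusted p = 0.428), and Mep1b, the meprin that cuts Muc2 loose from the epithelium, had 0.27 (adjusted p = 0.479). In set 1, 11 of the 18 were called lower, beside 11.2% of all genes. Sytl2, a Rab27 effector, had a log2 fold change of -2.51 (adjusted p = 2.4e-05) and Txndc5, an isomerase of the endoplasmic reticulum, -2.25 (adjusted p = 0.00034).

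The enzymes of mucin O-glycosylation gave 0 calls between the groups in 23 tested and a median log2 fold change of 0.085. Of the 23, 2 had an unadjusted p under 0.05, beside 12.7% of all genes. Galnt6, which adds the first sugar, was at 255 CPM ± 62.1 (sham, SD, n = 7) against 173 CPM ± 72.6 (pMCAO, SD, n = 5), a log2 fold change of -0.42 (adjusted p = 0.211, SE 0.14), and its relative Galnt1 had 0.33 (adjusted p = 0.419). Gcnt3, which branches the sugar chain, had 0.53 (adjusted p = 0.294, SE 0.21). In set 1, 11 of the 23 were called lower, beside 11.2% of all genes, and 1 was called higher, beside 4.13%. Those called lower included Gcnt3 at -2.40 (adjusted p = 0.00019) and Galnt4 at -2.20 (adjusted p = 0.00034).

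Of 9 goblet lineage transcription factors, 0 were called between the groups, with 2 at an unadjusted p under 0.05, beside 12.7% of all genes. In set 1, 6 of the 9 were called lower, beside 11.2% of all genes. Foxa3, a forkhead factor, had a log2 fold change of 0.94 (adjusted p = 0.213, SE 0.32) between the groups and -3.13 (adjusted p = 0.00352) between the sets. It was low in set 1, at 0 to 5.04 CPM. Gfi1, a repressor in the secretory lineage, had 2.22 (adjusted p = 0.149, SE 0.63) between the groups. Its mean was 1.01 CPM in sham and 3.11 CPM in pMCAO mice. In set 1 every sham library was at 0 and the pMCAO library at 0.427 CPM, so its fold change rests in part on values at the floor. Creb3l1, which acts in the secretory pathway, had -0.011 between the groups and -2.95 (adjusted p = 0.000445) between the sets, whereas Klf4, which enterocytes also express, had -0.016 and 0.91 (adjusted p = 0.000436), and Foxa1 had -0.22 and -0.43.

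Many other mucins had no row in the count table. Of 11 listed, 5 had a row, and 0 were called between the groups or had an unadjusted p under 0.05 there. In set 1, 1 of the 5 was called lower, beside 11.2% of all genes. That gene was Muc3a, a second mucin gene of the same chromosome as Muc3, with a log2 fold change of -2.87 (adjusted p = 0.000117, SE 0.35), opposite in sign to Muc3. Between the groups Muc3a had 0.22 (adjusted p = 0.76, SE 0.25), again opposite in sign to Muc3. No stretch of the longest Muc3 transcript matched that of Muc3a, or of any other gene, at 95% identity over at least 50 bases, and the annotation marks Muc3a as a reference genome error. The membrane mucin Muc4, at 74.9 CPM ± 32.5 (sham, SD, n = 7) against 113 CPM ± 75.5 (pMCAO, SD, n = 5), had a log2 fold change of 0.31 (adjusted p = 0.717), and the sialomucin Cd164 had 0.031 between the groups and -0.94 (adjusted p = 0.00079) between the sets. The gel-forming mucins of the stomach and airway, Muc6 and Muc5b, were at 13.4 and 4.10 CPM in sham mice, with log2 fold changes of 0.44 and -0.57 (adjusted p = 0.6 and 0.607).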

How the data were processed

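RNA of sorted EpCAM-positive cells was sequenced as paired-end reads of 100 bases after cleavage of ribosomal RNA. Per the methods, the authors used STAR against GRCm38 for alignment and featureCounts for gene assignment (strand setting not given in the sources used here) and tested them with limma-voom, corrected for the day of tissue collection. The deposited counts are whole-number reads per gene and were the values used. The deposited CPM columns are those counts scaled to the library total, and the deposited log2 columns (fold change and average expression) and p-value columns hold the authors' own comparison; none of these was used.

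The library sets were taken from earlier work on these data, where their boundaries brought a fit with set terms onto the authors' fold changes, so they derive from that fit, since the labels give no collection day. The mucus genes, the lists and the tests were chosen with earlier results of these data known. The genes named are all 10 of the list, plus, from each related list, the 2 with the smallest unadjusted p in each comparison and the 2 most abundant, and the 5 most like Muc2; others were named after their values were seen.

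Genes were filtered with filterByExpr (minimum count 10; 14462 kept of 15855), scaled with TMM and fitted with limma-voom (R 4.3.3, with limma 3.58.1 and edgeR 4.0.16) on library set and group, with Benjamini-Hochberg adjustment over all genes tested. The set contrast was set 1 minus the mean of sets 2, 3 and 4. Plotted and correlated log2 CPM values carry a prior count of 2. CPM per kb divides by the exonic length of GENCODE M21. Alternatives were DESeq2 1.42.0, the quasi-likelihood test of edgeR, limma-trend, quality weights, other scaling and filters, omitted samples or sets, and a replicate block. The fits were tested on simulated counts without the library set differences of these data. Of genes given a change of 2 log2 units, 63.5% were called between the groups and 55.8% between the sets. Of the calls, 4.69% and 1.85% were false. A gene that was not called may thus still differ. Samples are labelled as biological replicates, and the 2 most alike within a group still differed beyond sampling noise (chi-square divided by its degrees of freedom, 17.7), so each was counted as 1. Limits set by 3 counts cover counting error alone, because PCR copies of a molecule could not be told apart. Promoter sequences are from RefSeq (GRCm38.p6).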

Additional observations from a re-analysis of the deposited data

How the results depend on the processing

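The number of genes called between pMCAO and sham over the whole table, 47, moved with many settings, whereas the number of mucus genes called was 0 under each setting but the replicate block. All genes called were 21 by edgeR, 115 by DESeq2, 26 by limma-trend, 29 with quality weights, 0 with group alone (1219 at an unadjusted p under 0.05 by limma-voom) and 0 with library set 1 left out, and leaving out 1 sample gave 4 (without sham replicate 6) to 86 (without pMCAO replicate 3), with 6 without pMCAO replicate 1. Chosen after seeing the data, edgeR on group alone called 0 and limma-voom on group alone without sham replicate 7 called 5. Nothing in the labels ties samples of the same replicate number, and deviations of same-numbered samples correlated between -0.239 and 0.398, so the samples were not treated as paired. With the replicate block in place of the set, 243 genes were called, among them 2 mucus genes, Zg16 (adjusted p = 0.0378) and Muc3 (adjusted p = 0.0309) by limma-voom.

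Of 234 alternative fold changes of the 9 mucus genes between the groups, 9 turned sign. Agr2 ranged from -0.41 to 0.18 when 1 sample was left out and was 0.29 with group alone, 0.87 with the replicate block and 0.60 with group alone without sham replicate 7. Spink4 ranged from -0.047 (without pMCAO replicate 2) to 1.09 and Muc2 from -0.019 (without pMCAO replicate 2) to 0.40 when 1 sample was left out. The cause was not tested. Between library sets, 0 of 179 turned sign. All genes called there, 2223, were 1130 in the sham samples alone, where only 8578 genes were tested and Spdef was not among them, and 1161 to 2556 when 1 sample was left out, the lowest without pMCAO replicate 1; the mucus genes called were 7 or 8. Depth limits Spink4 and Spdef most, since set 1 held as few as 14 and 5 of their reads.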
